A study of Homo sapiens with 6 samples.

Results

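The nuclear genes for the subunits of respiratory complex I were followed in CAL27 cells, a human line long grown in culture that derives from a tongue carcinoma of squamous type. The genes are those of the deposited count table whose symbol is NDUF, then A, B, C, S or V, then only digits, together with NDUFAB1, which gave 38 of 60564 listed genes. RNA sequencing compared 2 groups of 3 libraries. The CNTNAP2-203 OE cells carried a lentivirus with CNTNAP2-203, a transcript of CNTNAP2, and the control cells carried a control vector, for which the sample descriptions name EGFP and the genotype label reads WT. Both groups were grown in DMEM with fetal bovine serum, were infected with virus made in HEK 293T cells and were selected with 5 μg/ml puromycin for 2 weeks. They are therefore stable lines after selection. Nothing in the labels ties the 3 libraries of a group to separate cultures or infections, so the p-values reflect the spread among libraries alone, and that spread may be technical.

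Complex I is the large enzyme of the inner mitochondrial membrane that takes electrons from NADH, passes them along a chain of iron-sulfur clusters to ubiquinone, and pumps protons as it does so. It is L-shaped, with a matrix arm that carries the redox centres and a membrane arm that carries the proton channels. Most of its subunits are coded in the nucleus and imported, while the hydrophobic core of the membrane arm is coded by mitochondrial DNA, so that both genomes must supply parts of the same enzyme. The 38 genes were grouped by place in the enzyme into 7 core subunits that hold the redox centres and the quinone site, 9 accessory subunits of the matrix arm, 9 of the proximal membrane arm and 11 of the distal membrane arm. NDUFAB1, the mitochondrial acyl carrier protein that sits in both arms, and NDUFA4, which carries a complex I name but is today counted with cytochrome c oxidase, were kept apart.

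Nuclear respiratory genes are known for promoters with sites of the factor NRF1, and the title of the series names E2F1, so promoter letters were searched for both. RefSeq promoter windows (GRCh38.p14), which run from 250 bases before to 50 bases after the first listed start of a gene, were matched by symbol for 32 of the 38 genes. The NRF1 letters, GCGCA, then any base, then GCGC, read on both strands, were in 6 of the 32 windows and in 6.28% of 27305 promoters. The YY1 letters AAGATGGC were in 6 windows against 3.03% of all promoters, and the GABPA letters CCGGAAGT in 2 windows against 4.44%. The E2F letters TTTCCCGC or TTTGGCGC were in 3 windows against 2.31%. The NF-Y letters CCAAT were in 8 windows against 35.7% of all promoters. A match describes the letters of the window and does not show binding. Stretches upstream of the start that hold such letters are shown for 5 genes, with the NRF1 letters in capitals for the first 4 and the E2F letters in capitals for NDUFS6. They are chr3:120596116-120596308 (plus strand) for NDUFB4, chr19:54102680-54102726 (plus strand) for NDUFA3, chr12:95003771-95003877 (minus strand) for NDUFA12, chr12:4649032-4649094 (plus strand) for NDUFA9 and chr5:1801307-1801351 (plus strand) for NDUFS6.
NDUFB4: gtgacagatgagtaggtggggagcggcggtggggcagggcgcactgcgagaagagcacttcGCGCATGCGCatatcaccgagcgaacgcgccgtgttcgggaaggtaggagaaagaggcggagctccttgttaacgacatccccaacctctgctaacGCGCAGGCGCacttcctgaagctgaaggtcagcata
NDUFA3: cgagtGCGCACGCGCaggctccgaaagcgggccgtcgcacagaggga
NDUFA12: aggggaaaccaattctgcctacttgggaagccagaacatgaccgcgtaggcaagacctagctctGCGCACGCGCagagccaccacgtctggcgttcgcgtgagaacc
NDUFA9: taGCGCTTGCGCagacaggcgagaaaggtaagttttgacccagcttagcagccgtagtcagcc
NDUFS6: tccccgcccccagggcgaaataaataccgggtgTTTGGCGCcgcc
The NDUFB4 stretch holds the NRF1 letters at 2 places, and each of the other stretches holds 1 match in capitals. The NDUFA12 stretch also holds the NF-Y letters CCAAT, which are not in capitals.

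The deposited counts summed to between 36843190 and 42412703 per library. CNTNAP2, the introduced gene, had 0, 0.076 and 0.0947 CPM (the count scaled to library size, with TMM factors) in control replicates 1, 2 and 3, and 3307, 3778 and 3409 CPM in CNTNAP2-203 OE replicates 1, 2 and 3, as labelled. CNTNAP2-203 OE replicate 3 stood apart. It had the fewest counts, 36843190, and the fewest genes with a count, 25336 against 26418 to 27002 in the other libraries. Its TMM factor was 0.9505, against 0.9993 to 1.019 in the others. The part of these differences in the results was not tested. The root mean square difference of log2 CPM over all tested genes was 0.51 and 0.523 between replicate 3 and the other libraries of its group. For the other pairs of libraries within a group it was 0.382 to 0.413. All 8 squamous epithelial markers examined, such as KRT5 and KRT14, were detected, with summed levels of 13722 to 15577 CPM in the controls and 13838 to 17022 CPM in CNTNAP2-203 OE. The markers of this list did not share 1 direction. KRT5 was at 4570.3, 5287 and 5522 CPM against 5907, 6582 and 7012 CPM, while KRT17 was at 2397, 2211 and 2339 CPM against 1396, 1424 and 1857 CPM (log2 fold change -0.57, edgeR adjusted p = 0.0848, and 0.00591 without CNTNAP2-203 OE replicate 3). TP63 was at 70.9 CPM in CNTNAP2-203 OE replicate 3 and at 187 to 258 CPM in the other 5 libraries. These 3 were named after their values were seen, and their part in the other results was not tested. Summed fibroblast markers lay between 40.0 and 45.9 CPM and endothelial markers between 6.1 and 11.5 CPM. Of the 7 leukocyte markers, PTPRC and LYZ were at or near 0, and the summed level of 352 to 404 CPM in the controls and 227 to 262 CPM in CNTNAP2-203 OE was mostly HLA-DRA, which fell (293, 301 and 343 CPM against 176, 165 and 199 CPM, log2 fold change -0.80, edgeR adjusted p = 0.0252). Its part in the other results was not tested.

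All 38 genes were well detected, with 342 to 10262 counts per gene and library, and all passed the filter on low counts. None of the 38 passed the edgeR quasi-likelihood test at an adjusted p under 0.05, a threshold that 1.39% of the 18786 tested genes passed, with 0.798% higher. Their fitted changes nevertheless lay almost entirely on 1 side. Of the 38 genes, 36 had a positive log2 fold change (CNTNAP2-203 OE minus control), against 49.6% of all tested genes, and the median was 0.37 (1.3-fold), against 0.00 for all tested genes. At an unadjusted p under 0.05, 16 of the 38 were higher and 0 lower, while 9.41% of the tested genes were higher and 7.84% lower at that level. The 3 CNTNAP2-203 OE libraries lay above all 3 controls for 21 of the 38 genes, a separation found for 13.7% of the tested genes, and below all 3 controls for 0, against 12.8% of the tested genes. DESeq2 called 3 of the 38 higher, NDUFC1, NDUFB2 and NDUFB3 (adjusted p = 0.0122, 0.0368 and 0.0391), where it called 3.46% of the tested genes higher, and limma-voom and limma-trend called 0. In bulk libraries, a change in the share of cells and a change in RNA per cell cannot be told apart.

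CNTNAP2-203 OE replicate 3 was the highest of the 6 libraries for 35 of the 38 genes, against 28.7% of the tested genes. The exceptions included NDUFS8, highest in CNTNAP2-203 OE replicate 2, and NDUFS1, highest in replicate 1. Relative to the mean of the controls, the median of log2 (CPM + 0.5) over the 38 genes was 0.03, -0.07 and 0.02 in control replicates 1, 2 and 3, and 0.20, 0.12 and 0.67 in CNTNAP2-203 OE replicates 1, 2 and 3. Every CNTNAP2-203 OE library thus had a higher median than every control, with replicate 3 far above the others. Without replicate 3, 33 of the 38 genes had a positive log2 fold change, the median was 0.16 and edgeR called 0 of them. In both remaining CNTNAP2-203 OE libraries, 21 of the 38 genes lay above all 3 controls, as did 19.1% of the tested genes. The median coefficient of variation of the 38 genes was 7.09% among the controls and 20.7% among the CNTNAP2-203 OE libraries.

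**Figure D1:**
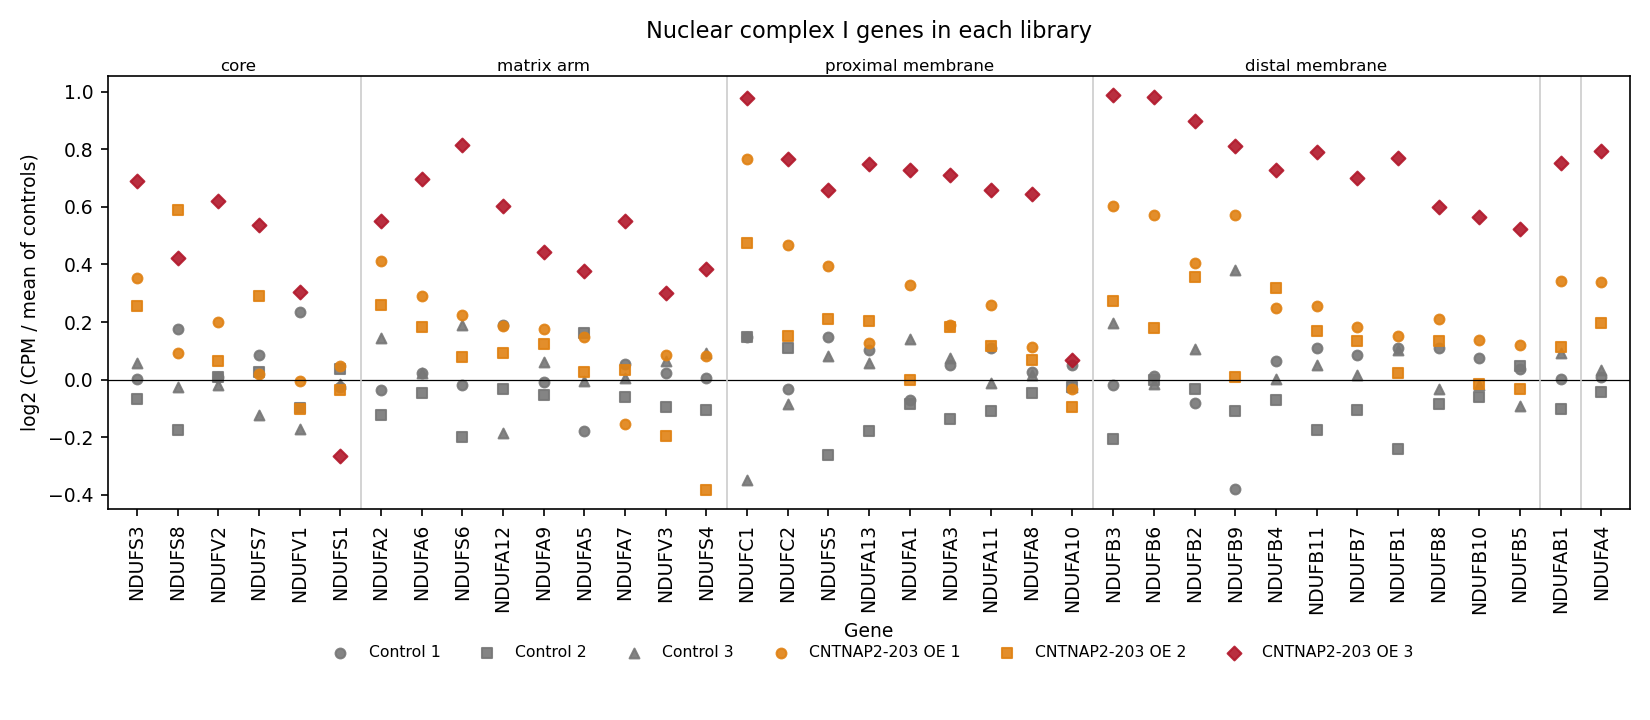
Each point is 1 of 37 of the genes in 1 library, plotted on the vertical axis as log2 of its CPM over the mean CPM of the 3 controls, with the genes on the horizontal axis ordered by place in the enzyme and by fold change. Controls are grey, CNTNAP2-203 OE replicates 1 and 2 orange and replicate 3 red, and replicate 3 is the highest point for 35 of the 37 genes shown.

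The core subunits carry out the redox chemistry of the enzyme. Their log2 fold changes ran from -0.08 to 0.44 with a median of 0.30, and 2 of the 7 had an unadjusted p under 0.05. For this count and those of the other places below, the share of all tested genes higher at that level was 9.41%. NDUFS3, a core subunit at the base of the matrix arm (chr11:47565336-47584562, plus strand, GRCh38), was at 38.5, 36.7 and 40.0 CPM in the controls and 49.1, 45.8 and 61.9 CPM in CNTNAP2-203 OE. The groups did not overlap, and the log2 fold change was 0.44 (SE 0.131, edgeR quasi-likelihood adjusted p = 0.147). NDUFS8, which holds a pair of iron-sulfur clusters, was at 68.1, 53.4 and 59.2 CPM against 64.3, 90.6 and 80.8 CPM. Here replicate 1 of CNTNAP2-203 OE fell within the controls, and the adjusted p was 0.247.

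NDUFV2, an iron-sulfur subunit beside the NADH site, was at 155, 155 and 152 CPM against 177, 161 and 237 CPM, with groups apart and an adjusted p of 0.32. NDUFS1, the largest core subunit, ran the other way and had the lowest fold change of the 38. It was at 137, 143 and 138 CPM against 144, 136 and 116 CPM (log2 fold change -0.08, SE 0.107, edgeR adjusted p = 0.739), with replicate 3 the lowest library of all. Without that replicate its log2 fold change was 0.0016, and with the trend over gene length removed it was 0.03. NDUFV1, which binds NADH and the flavin, had a log2 fold change of 0.08 with overlapping groups, a gene picked out with its values in view.

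Among the accessory subunits of the matrix arm, all 9 had a positive log2 fold change, from 0.06 to 0.41 with a median of 0.26, and 2 had an unadjusted p under 0.05. NDUFA2, a small subunit with a thioredoxin-like fold (chr5:140638740-140647785, minus strand), was at 25.5, 24.0 and 28.9 CPM in the controls and 34.8, 31.3 and 38.3 CPM in CNTNAP2-203 OE. All CNTNAP2-203 OE libraries lay above the controls, and the log2 fold change of 0.41 (SE 0.125, edgeR adjusted p = 0.157) was 0.33 without replicate 3. NDUFA2 overlaps the protein-coding genes IK and TMCO6 on the opposite strand. NDUFA6, a partner of the acyl carrier protein, was at 61.2, 58.4 and 61.2 CPM against 73.8, 68.4 and 97.7 CPM (adjusted p = 0.202). NDUFA9, which lies near the quinone site and whose promoter stretch with NRF1 letters is shown, was at 83.3, 80.8 and 87.4 CPM against 94.8, 91.3 and 114 CPM (adjusted p = 0.294). For both genes the groups did not overlap. NDUFS4, NDUFV3 and NDUFA7 had a negative log2 fold change without replicate 3, at -0.14, -0.05 and -0.06, and were named after their values were seen.

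The proximal membrane arm, next to the joint of the enzyme, held the highest fold change of the 38. Of its 9 accessory genes 8 were positive and the median was 0.38. An unadjusted p under 0.05 was found for 4, while 9.41% of the tested genes were higher at that level. The CNTNAP2-203 OE libraries lay above all controls for 7, against 13.7% of the tested genes. NDUFC1, a small membrane subunit (chr4:139266880-139302551, minus strand), was at 11.4, 11.4 and 8.09 CPM in the controls and 17.5, 14.3 and 20.3 CPM in CNTNAP2-203 OE. Each CNTNAP2-203 OE library was above each control, at a log2 fold change of 0.75 (1.69-fold, SE 0.192, edgeR adjusted p = 0.108). Without replicate 3 the log2 fold change was 0.62, and over the fits that leave out 1 library the adjusted p was 0.113 to 0.346. NDUFC1 overlaps NAA15 and MGARP in GENCODE 29, and reads of the 2 strands were not kept apart by the kit.

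NDUFC2, its larger neighbour in the membrane arm (chr11:78068304-78080219, minus strand), was at 83.3, 92.0 and 80.5 CPM against 118, 94.7 and 145 CPM. The groups were apart, with CNTNAP2-203 OE replicate 2 just above the highest control (log2 fold change 0.48, SE 0.156, edgeR adjusted p = 0.177). NDUFC2 shares sequence with the annotated readthrough NDUFC2-KCTD14, which had 1.74 to 7.93 CPM. NDUFS5, a subunit on the side of the intermembrane space (chr1:39026318-39034636, plus strand), was at 134, 101 and 128 CPM against 159, 140.1 and 191 CPM (log2 fold change 0.43, adjusted p = 0.205). The exception of this arm was NDUFA10, a subunit related to nucleoside kinases and named after its values were seen, with a log2 fold change of -0.02 and overlapping groups.

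The distal membrane arm holds the far proton channels. All 11 of its NDUFB genes had a positive log2 fold change, from 0.22 to 0.65 with a median of 0.43, also without replicate 3 (median 0.21), and 6 had an unadjusted p under 0.05. NDUFB2 (chr7:140690777-140722790, plus strand) was at 27.9, 28.9 and 31.8 CPM in the controls and 39.1, 37.8 and 55.0 CPM in CNTNAP2-203 OE. NDUFB3 (chr2:201071433-201085750, plus strand) was at 28.7, 25.2 and 33.3 CPM against 44.2, 35.1 and 57.6 CPM. NDUFB6 (chr9:32552999-32573184, minus strand) was at 21.4, 21.2 and 21.0 CPM against 31.5, 24.0 and 41.9 CPM.

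These 3 genes encode small subunits that cross the membrane, and in each of them every CNTNAP2-203 OE library was above every control, with replicate 3 highest. Their log2 fold changes were 0.57, 0.65 and 0.61 (SE 0.16, 0.191 and 0.192), with edgeR adjusted p-values of 0.133, 0.148 and 0.165. Without replicate 3 the log2 fold changes were 0.38, 0.44 and 0.38. Each of the 3 overlaps another protein-coding gene on the opposite strand: BRAF, FAM126B and SMIM27. NDUFB2 also overlaps the protein-coding gene ADCK2 on its own strand. NDUFB4, whose promoter stretch holds 2 matches to the NRF1 letters and which was named after its values were seen, was at 41.0, 37.3 and 39.2 CPM against 46.5, 48.8 and 64.8 CPM, with groups apart (log2 fold change 0.45, adjusted p = 0.169). NDUFB9, a partner of the acyl carrier protein also named after its values were seen, varied most among the controls, at 63.2, 76.2 and 107 CPM, and its groups overlapped.

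**Figure D2:**
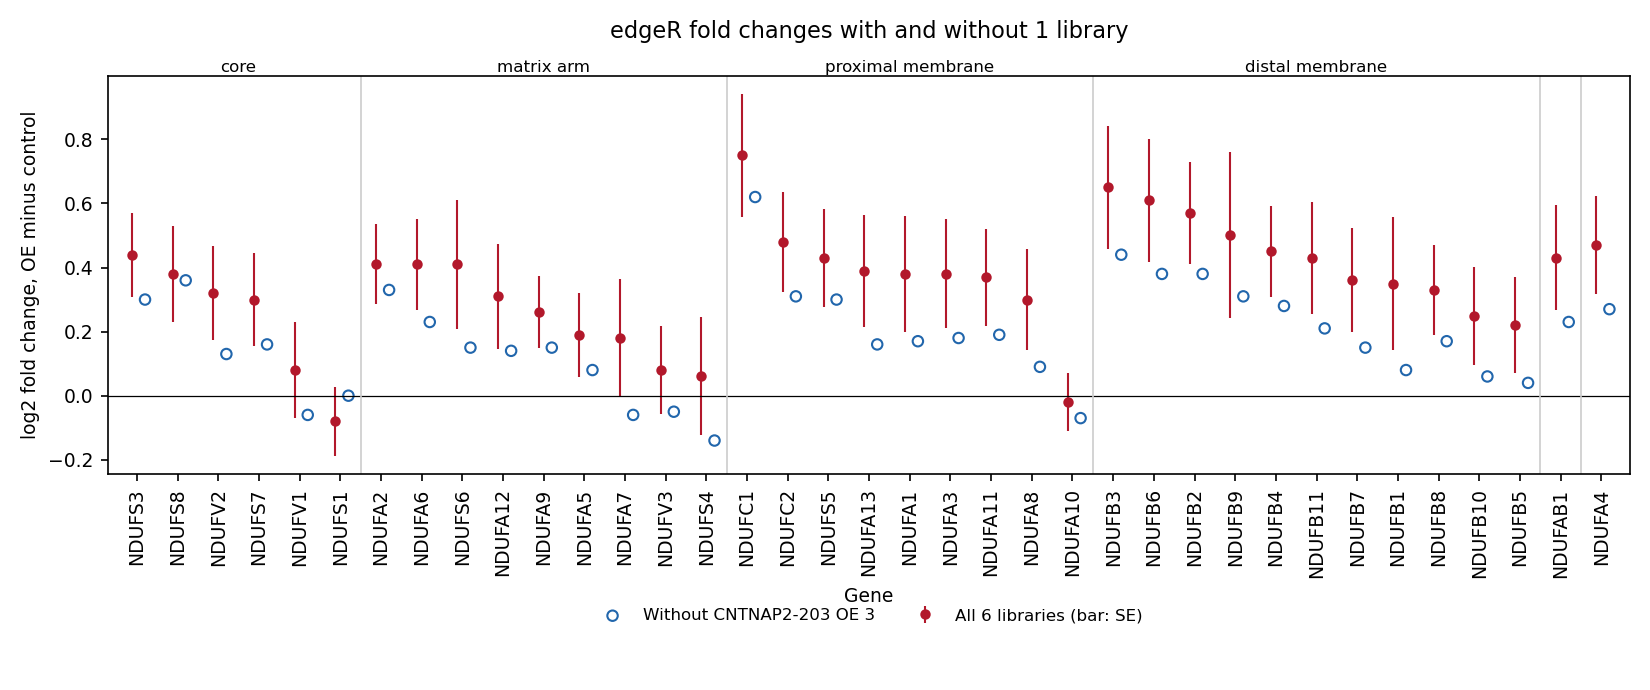
The vertical axis is the edgeR log2 fold change, CNTNAP2-203 OE minus control, of 37 of the genes on the horizontal axis, in the same order by place in the enzyme. Filled points use all 6 libraries, with bars of 1 SE, and open circles leave out CNTNAP2-203 OE replicate 3, where the median over all 38 genes was 0.16 instead of 0.37.

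NDUFAB1 and NDUFA4, the genes kept apart, were both higher in every CNTNAP2-203 OE library than in any control. NDUFAB1 (chr16:23581002-23596356, minus strand), which also serves mitochondrial fatty acid synthesis, was at 46.5, 43.3 and 49.5 CPM against 58.9, 50.2 and 78.2 CPM (log2 fold change 0.43, SE 0.164, edgeR adjusted p = 0.236). NDUFA4 (chr7:10931951-10940256, minus strand) was at 170.2, 164 and 173 CPM against 214, 194 and 293 CPM (log2 fold change 0.47, SE 0.154, adjusted p = 0.181). Leaving NDUFA4 out of the 38 left the median at 0.37. Its paralog NDUFA4L2, a gene outside the rule and named after its values were seen, ran the other way at a low level, with 1.56, 1.85 and 2.32 CPM in the controls and 0.401, 0.629 and 0.914 CPM in CNTNAP2-203 OE. Its groups did not overlap, and with all 6 libraries it did not pass the edgeR test (log2 fold change -1.57, SE 0.346, adjusted p = 0.0789). It passed in edgeR without CNTNAP2-203 OE replicate 3 (-1.89, adjusted p = 0.0402), in edgeR with GC and transcript length trends removed (adjusted p = 0.0396) and in DESeq2 (adjusted p = 0.00323). On the log2(FPKM + 1) scale, which understates changes of low genes, limma-trend gave -0.40.

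The levels per length also differed widely between subunits of the same enzyme. On the scale of the deposited FPKM, means over the 6 libraries ran from 4.6 for NDUFS7, a core iron-sulfur subunit, and 5.76 for NDUFC1 to 103 for NDUFA8 and 212 for NDUFS5. The lengths behind these FPKM values, recovered from the 2 deposited tables, ran from 513 to 14913 bases, and for 37 of the 38 genes they exceed the length of a representative transcript. With the length of 1 representative transcript per gene instead, NDUFS5 kept rank 1 of 38, at 261 CPM per kb, NDUFA8 moved from rank 2 to 6, NDUFC1 from 37 to 36 and NDUFS7 from 38 to 31. NDUFA8, like NDUFS5 a subunit on the side of the intermembrane space, was at 92.6, 88.0 and 91.9 CPM in the controls and 98.2, 95.3 and 142 CPM in CNTNAP2-203 OE, with groups apart (log2 fold change 0.30, adjusted p = 0.379). NDUFS7 was at 40.2, 38.6 and 34.8 CPM against 38.4, 46.3 and 55.0 CPM, with overlapping groups (log2 fold change 0.30, adjusted p = 0.344).

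The partner subunits coded by mitochondrial DNA were tested in the same fit. None of the 7 passed in edgeR or DESeq2, 0 had an unadjusted p under 0.05, and no gene had groups that did not overlap. Of all tested genes, edgeR called 1.39%, and 9.41% were higher and 7.84% lower at that unadjusted level. The groups did not overlap for 13.7% (CNTNAP2-203 OE higher) and 12.8% (lower). With only 7 genes, counts of 0 do not set them apart from these shares. The median log2 fold change of the 7 was 0.10, with 5 positive and 2 negative, and 0.00 without CNTNAP2-203 OE replicate 3. MT-ND6 was highest, at 0.23, and MT-ND4L lowest, at -0.27, with 1055 CPM in replicate 3 against 1662 to 1921 CPM in the other 5 libraries. Relative to the controls, their median was 0.11, -0.07 and 0.25 in CNTNAP2-203 OE replicates 1, 2 and 3. Whether the nuclear and mitochondrial genes of complex I differ in their change was not tested. MT genes together took 7.55% to 8.55% of the counts of a library.

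The other genes of the respiratory chain were read from the same edgeR fit, in which 0 genes of these lists were called. No test compared the lists with each other. Beside the counts below, 9.41% of all tested genes were higher at an unadjusted p under 0.05. DESeq2 called 3.46% of all tested genes higher. Of the 19 assembly factors, which build complex I and do not stay in it, 17 had a positive log2 fold change, 4 had an unadjusted p under 0.05, and the median was 0.21, or 0.10 without CNTNAP2-203 OE replicate 3. The smallest p-values were those of NDUFAF8 (log2 fold change 0.67, edgeR adjusted p = 0.107) and TMEM70 (0.51, adjusted p = 0.134), which DESeq2 called (adjusted p = 0.0139 and 0.0377). NDUFAF8 was also called in edgeR with GC and transcript length trends removed (adjusted p = 0.0415), a fit that called 636 of all tested genes.

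The log2 fold changes of the 10 nuclear complex IV genes were all positive. Their median was 0.41, or 0.22 without replicate 3, and 6 had an unadjusted p under 0.05. COX7B, a small subunit of cytochrome c oxidase, was at 54.0, 59.0 and 63.9 CPM against 91.9, 82.8 and 116 CPM (log2 fold change 0.72, edgeR adjusted p = 0.0581). It was the list's 1 gene called by DESeq2 (adjusted p = 0.00135) and by edgeR without replicate 3 (0.56, adjusted p = 0.0361). It was also called in edgeR without the low-count filter (adjusted p = 0.0284) and with the length trend removed (0.0399). With GC and transcript length trends removed it was called as well (edgeR adjusted p = 0.0256). These 3 fits called 354, 484 and 636 of all tested genes. The other edgeR fits and limma did not call COX7B. COX8A had the next smallest p (0.46, edgeR adjusted p = 0.176).

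All 15 nuclear genes of ATP synthase, the enzyme that uses the proton gradient, were on the positive side. Their median log2 fold change was 0.38, or 0.23 without replicate 3, and 10 had an unadjusted p under 0.05. By edgeR p the first were ATP5G1 (0.65, adjusted p = 0.0969) and ATP5F1 (0.53, adjusted p = 0.139), symbols as in the deposited counts. DESeq2 called 4 of the list, these genes with ATP5L and ATP5J2 (adjusted p = 0.011, 0.0438, 0.0472 and 0.0497). ATP5G1 was also called in edgeR with GC and transcript length trends removed (adjusted p = 0.0313).

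The 9 complex III genes had a median of 0.26, or 0.09 without replicate 3, and 2 had an unadjusted p under 0.05, UQCR10 (0.45, edgeR adjusted p = 0.173) and UQCRQ (0.47, adjusted p = 0.186). The 4 complex II genes had a median of 0.15, or 0.07 without replicate 3, and 0 had an unadjusted p under 0.05. Their smallest p-values were those of SDHB (0.22, edgeR adjusted p = 0.389) and SDHC (0.16, adjusted p = 0.44), while SDHA had a log2 fold change of -0.01. DESeq2 called 0 genes of complexes II and III.

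Of 12 regulators of mitochondrial biogenesis 9 had a positive log2 fold change, the median was 0.08, 1 had an unadjusted p under 0.05, and neither edgeR nor DESeq2 called any. TFAM, which packages mitochondrial DNA and helps start its transcription, was at 60.7, 64.3 and 60.6 CPM against 78.4, 72.2 and 69.6 CPM (log2 fold change 0.25, edgeR adjusted p = 0.235). ESRRA had a log2 fold change of 0.50 (adjusted p = 0.293). NRF1 itself had one of 0.10 (adjusted p = 0.795), and -0.05 without replicate 3. PPARGC1A, a coactivator known for driving mitochondrial biogenesis, had the lowest log2 fold change of the list, -0.75 (SE 0.625, adjusted p = 0.586). It was at 13.1, 13.1 and 15.7 CPM against 12.2, 10.6 and 1.91 CPM, below all controls in each CNTNAP2-203 OE library and lowest in replicate 3, and its log2 fold change was -0.29 without that replicate. Its relative PPARGC1B was also at -0.29 (adjusted p = 0.426), with overlapping groups. NRF1, SDHA, PPARGC1A and PPARGC1B were named after their values were seen.

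**Figure D3:**
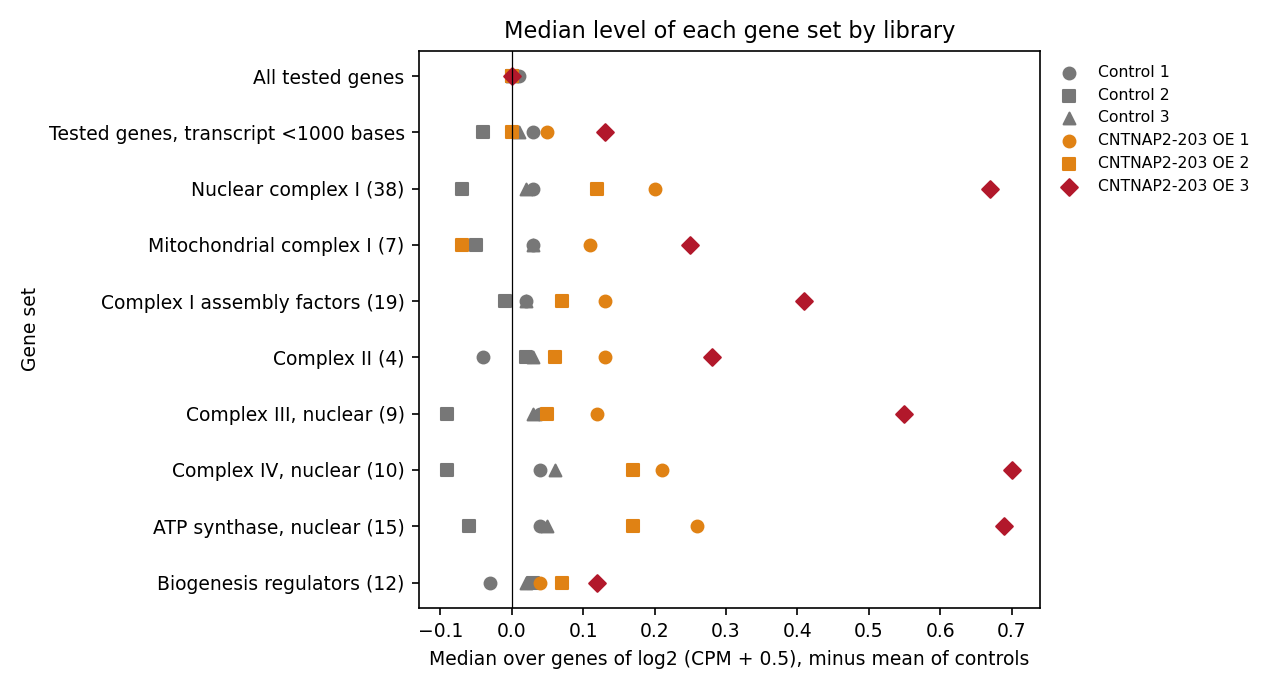
Each point is 1 library, and the horizontal axis gives the median over the genes of a set of log2 (CPM + 0.5) minus the mean of the 3 controls. In CNTNAP2-203 OE replicate 3 the 38 nuclear complex I genes were at 0.67, nuclear complex IV genes at 0.70 and all tested genes at 0.00.

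The 38 genes had shorter transcripts than the tested genes as a whole. The representative transcripts of the 38 genes had a median length of 778 bases, 25 of them under 1000 bases, against 2163 bases over all tested genes. The 3736 tested genes with a representative transcript under 1000 bases had a median log2 fold change of 0.08 and, relative to the controls, medians of 0.05, 0.00 and 0.13 in CNTNAP2-203 OE replicates 1, 2 and 3. The corresponding values of the 38 genes, at 0.20, 0.12 and 0.67, were larger in each library. With the trend over gene length removed, the median of the 38 genes was 0.32 with 37 positive, and with trends over GC content and transcript length removed it was 0.30 with 35 positive. Neither fit called any of the 38, and the part of transcript length in the result was not tested.

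**Figure D4:**
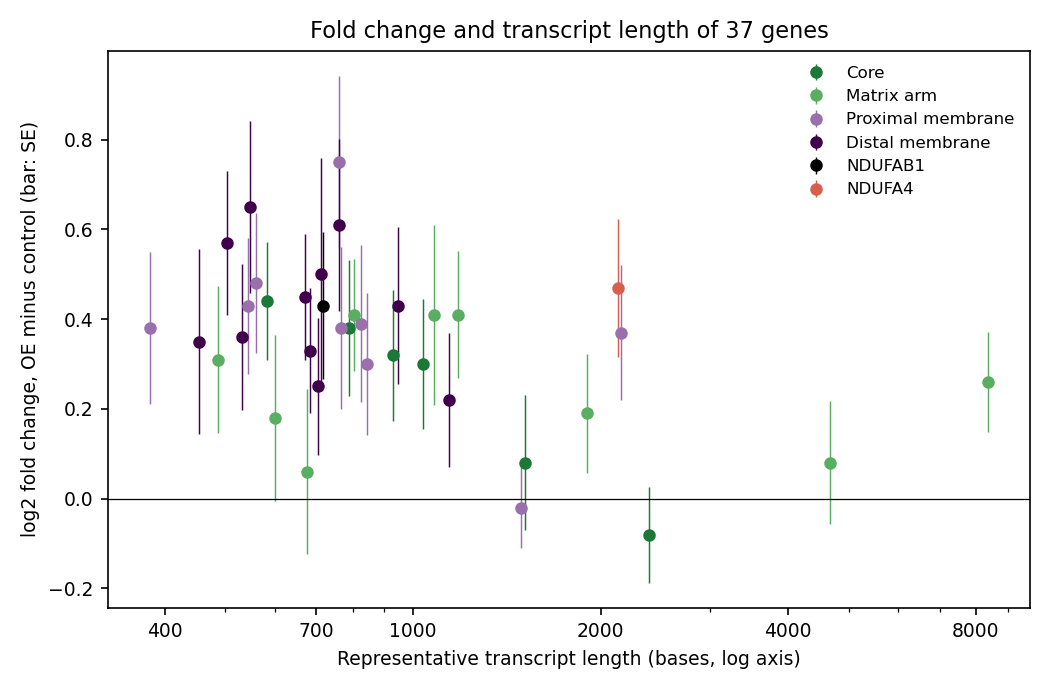
The horizontal axis, on a log scale, is the length of a representative transcript and the vertical axis the edgeR log2 fold change, CNTNAP2-203 OE minus control, with bars of 1 SE, for 37 of the genes coloured by place in the enzyme. The genes of the distal membrane arm lie among the short transcripts and between 0.22 and 0.65, while NDUFS1, with the lowest value, has 2394 bases.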

How the data were processed

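RNA was measured in 6 libraries, 3 CNTNAP2-203 OE and 3 control, grouped by sample title. Ribosomal RNA was removed and the TruSeq RNA v2 kit was used, per the labels' protocols, and this kit leaves strand unmarked. The labels say that the reverse reads of control replicate 1 were missing at submission. Trim Galore 0.4.4 and hg38 appear in the submitters' processing notes. For aligner, counter and annotation, the sources used here give no name. The raw counts per gene are as deposited by the authors. The log2 values deposited by the authors behave as log2(FPKM + 1): with this offset the gene length implied by both tables varied by 0.23% between libraries (median coefficient of variation), and by 2.49% with none.

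Counts were fitted with edgeR 4.0.16 in R 4.3.3 (filterByExpr, minimum count 10, TMM, robust quasi-likelihood test, group only) over 18786 genes, with Benjamini-Hochberg adjustment at 0.05. The SE is the log2 fold change over the square root of F. The fit was tested on simulated data, and how often it recovers changes as small as 1.3-fold is not reported here. Alternatives used DESeq2 1.42.0, limma 3.58.1, other scalings and filters, trend removal, a replicate block and libraries left out. Coordinates, overlaps and transcripts are from GENCODE 29 (GRCh38), in which 18 of the 38 genes overlap another protein-coding gene. The rule for names took CNTNAP2, the 3 genes of each place with the smallest p, the extremes of fold change, the 2 highest and 2 lowest by FPKM, NDUFAB1, NDUFA4, and the called genes and the 2 smallest p of each other list. The genes and lists were chosen with earlier results of these data known. One of the 38 genes enters the counts and medians but is not reported by name here.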

Additional observations from a re-analysis of the deposited data

How the results depend on the processing

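The edgeR count of 0 called among the 38 genes, in either direction, stood in 17 of the 18 alternatives, and DESeq2 called 3 higher. The median of the 38 genes stayed positive in all 18, between 0.16 without CNTNAP2-203 OE replicate 3 and 0.47 without replicate 2. Of the 17 genes named by rule, NDUFS1 changed sign in 3 alternatives, to 0.0016 without CNTNAP2-203 OE replicate 3 (range -0.15 to 0.0016 with 1 library left out) and to 0.03 with the length trend removed, with and without the replicate block. The other 16 kept their sign in each alternative. Most of the 17 were taken for a small p, so this does not describe the 38 as a set. Outside the 17, the log2 fold change also crossed 0 for NDUFA10 (-0.08 to 0.07), NDUFV1 (-0.06 to 0.21) and NDUFS4 (-0.14 to 0.24). The same held for NDUFA7 (-0.06 to 0.32) and NDUFV3 (-0.05 to 0.2). Over all tested genes 262 passed. The number was 1125 with DESeq2, 165 with limma-trend on the deposited log2 FPKM, 484 with the length trend removed and 636 with GC and transcript length trends removed, a correction chosen after seeing the data. With 1 library left out it was 14 to 545, the highest without CNTNAP2-203 OE replicate 3. With the replicate block it was 17, and 54 and 32 with the block and the length trend, or the GC and transcript length trends, removed. With the block, the 38 genes had a median of 0.35 and 0 called. No pairing was taken from the replicate numbers, since same-numbered libraries correlated at -0.08, 0.05 and -0.03 in their deviations from the group means. Counts of annotated pseudogenes, at most 2.44% of those of their parent gene, left the median at 0.37 when added. The causes of these changes were not tested. Each of the 38 genes had at least 342 counts in each library, and the part of counting noise in the spread among libraries was not tested.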
